A study of Mus musculus with 10 samples.

Results

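Expression of Pcp4 and of 6 other genes that mark the CA2 field of the hippocampus, Rgs14, Amigo2, Necab2, Map3k15, Cacng5 and Stard5, was compared between Dp1Tyb and wild-type (WT) mice. The genes were chosen by name as CA2 markers, and are 7 of the 43629 genes in the count table. All 7 were among the 17237 genes with enough reads to be tested. Pcp4 lies in the duplicated segment of chromosome 16, whereas the other 6 genes lie elsewhere and are not duplicated in Dp1Tyb mice. They were set beside Pcp4 as CA2 markers, but how much of their RNA came from CA2 was not tested.

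The data are RNA sequencing of total hippocampus from 5 WT and 5 Dp1Tyb mice, with 1 library for each mouse. All mice had the strain label C57BL/6J.129P2 and an age label of 18 weeks. The methods of the study describe them as male littermates and give a slightly higher age than the label. The Dp1Tyb mice carry Dp(16Lipi-Zbtb21)1TybEmcf, a duplication of the chromosome 16 segment from Lipi to Zbtb21 that gives 3 copies of its genes instead of 2 in every cell type. Dp1Tyb is a mouse model of Down syndrome, and the labels give no treatment for either group. Libraries held between 18227684 and 43692270 counted reads, and p-values weigh the genotype difference against the spread between mice of these groups.

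CA2 is a small field of pyramidal neurons between CA3 and CA1, known for its part in social memory and for its resistance to the synaptic potentiation that is easily induced in its neighbours. Pcp4, also called PEP-19, encodes a small protein that binds calmodulin through an IQ motif and speeds the exchange of calcium with calmodulin. In the hippocampus its protein is enriched in CA2 neurons, and elsewhere in the brain it is found in Purkinje cells, thalamus, striatum and deep cortical layers. Whole hippocampus holds little CA2 tissue, and in such bulk samples fewer cells of a type and less RNA per cell cannot be told apart.

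The coding sequence of Pcp4 is shown because nearly all of it lies in exons that the annotation also gives to another gene, as described further on. It is read from the 3-exon coding transcript of the gene (GENCODE M21, GRCm38, gene at chr16:96467606-96525793, plus strand), runs 5′ to 3′ over 189 bases with the stop codon, and carries the IQ motif in capitals at bases 136 to 168.
Pcp4: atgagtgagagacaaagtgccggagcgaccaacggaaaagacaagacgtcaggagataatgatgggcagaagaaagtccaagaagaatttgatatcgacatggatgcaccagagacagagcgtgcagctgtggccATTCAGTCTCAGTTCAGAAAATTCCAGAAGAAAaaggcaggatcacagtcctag

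The same motif is set beside that of its closest relative, Pcp4l1 (chromosome 1, minus strand), and of Nrgn (neurogranin, chromosome 9, minus strand), an abundant neuronal protein that binds calmodulin through the same kind of motif. The 33 capital letters are the codons of the IQ motif, with flanking codons in lower case.
Pcp4: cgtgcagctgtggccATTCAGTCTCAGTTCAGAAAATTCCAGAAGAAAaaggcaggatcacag
Pcp4l1: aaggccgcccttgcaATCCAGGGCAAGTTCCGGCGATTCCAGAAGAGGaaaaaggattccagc
Nrgn: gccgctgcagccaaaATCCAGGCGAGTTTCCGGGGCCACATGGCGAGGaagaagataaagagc

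Of the 33 motif bases, 22 were the same as in Pcp4 for Pcp4l1 (66.7%) and 14 for Nrgn (42.4%). The proteins differ in length, at 62 codons for Pcp4, 68 for Pcp4l1 and 78 for Nrgn. Pcp4 is thus both the shortest of the 3 and closest to Pcp4l1 in the motif.

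Few reads were counted for Pcp4 (ENSMUSG00000090223) in any library. There were 128, 114, 89, 130 and 98 counts in WT replicates 1 to 5, and 209, 193, 156, 109 and 192 in Dp1Tyb replicates 1 to 5. In the annotation, a long Igsf5 transcript (gene ENSMUSG00000117081) begins upstream of Pcp4 on the same strand and ends in the last exons of Pcp4. This Igsf5 entry is not in the count table, which lists Igsf5 under another identifier, ENSMUSG00000000159.

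**Figure D1:**
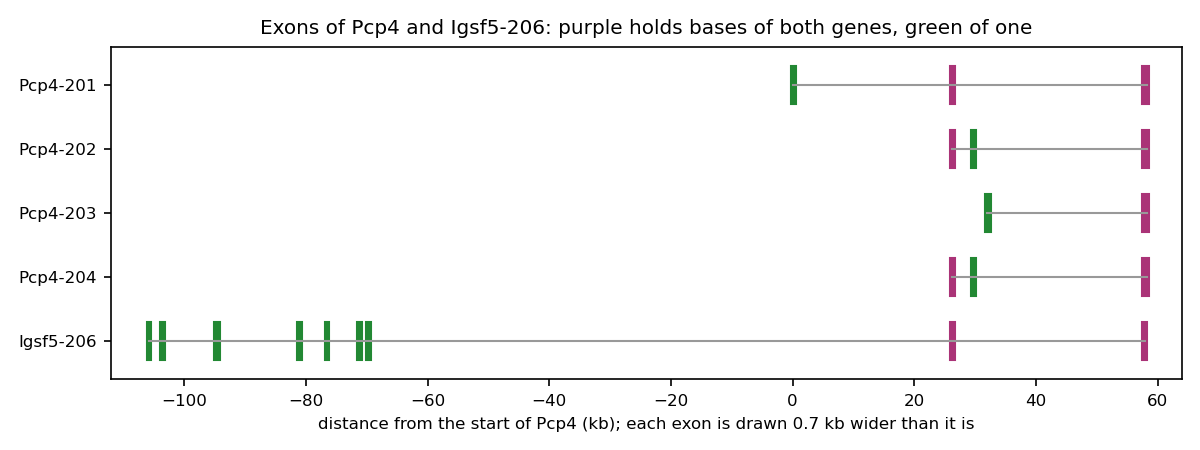
Exons of the annotated Pcp4 transcripts and of the long Igsf5 transcript, drawn by distance in kb from the start of Pcp4. Purple exons hold bases of both genes and green exons bases of one, and the middle and last of the 3 exons in the top row are purple.

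Of the 1026 exon bases of Pcp4, 243 (23.7%) are also exon bases of this Igsf5 transcript. In the 3-exon transcript of Pcp4, the first exon of 185 bases shares none with it, the second shares 52 of its 52 bases, and the last shares 191 of its 404 bases. Of the 186 coding bases before the stop codon, 177 lie in the shared stretch. The counting program used by the authors leaves out reads that fall on exons of 2 genes, but the annotation release they used is not given in the sources used here, so whether such reads of Pcp4 were lost was not tested.

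In CPM, counts scaled to a common library size, Pcp4 stood at 3.98, 4.74, 4.83, 3.94 and 4.57 in WT replicates 1 to 5, a mean of 4.41 ± 0.424 (SD, n = 5). The Dp1Tyb replicates 1 to 5 stood at 4.79, 6.75, 6.24, 3.30 and 8.76 CPM, a mean of 5.97 ± 2.06 (SD, n = 5). Dp1Tyb 5, 2 and 3 lay above every WT library, Dp1Tyb 1 lay within the WT range, and Dp1Tyb 4 lay below every WT library. The coefficient of variation of Pcp4 was 9.62% in WT and 34.5% in Dp1Tyb mice. The 95% Poisson counting intervals of the lowest and the highest library did not overlap, at 2.71 to 3.98 CPM in Dp1Tyb 4 and 7.56 to 10.1 CPM in Dp1Tyb 5.

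A level in proportion to 3 against 2 copies would be 1.5-fold, or 0.58 on the log2 scale. The fitted difference was 0.43 ± 0.21 (log2 fold change, SE), a fold of 1.35 with a 95% interval from 0.989 to 1.83, and did not pass the test (edgeR quasi-likelihood test, adjusted p = 0.365). An exact two-sided permutation test of the log2 CPM values over all 252 relabellings of the mice gave p = 0.167, where the smallest possible p was 0.00794. The interval of the fold holds both no change and the 1.5-fold level.

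Most genes of the duplicated segment passed the same test. Of 114 tested there, 68 were called higher in Dp1Tyb at an adjusted p under 0.05 (59.6%), against 0.479% of the tested genes outside the segment and 0.87% of all tested genes called higher. Their median log2 fold change was 0.53, and Pcp4 had rank 76 from the top. The spread of Pcp4 among Dp1Tyb mice had rank 10 of the 114 genes, whose median coefficient of variation in Dp1Tyb was 8.83%.

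**Figure D2:**
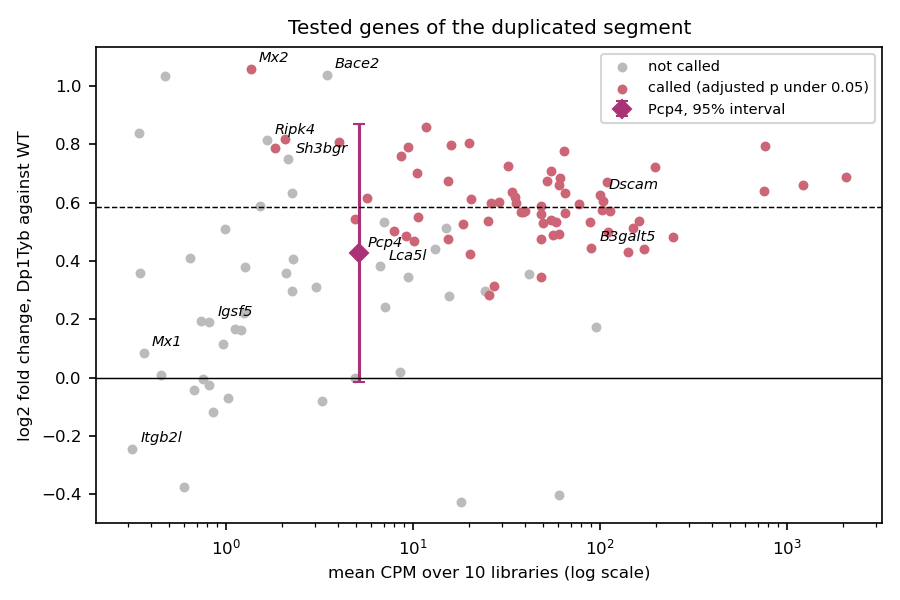
Log2 fold change of Dp1Tyb against WT for the 114 tested genes of the duplicated segment, against mean CPM over the 10 libraries on a log axis. Red points are genes called at an adjusted p under 0.05, the dashed line is the 1.5-fold level, and the bar is the 95% interval of Pcp4, which reaches both 0 and the dashed line.

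Duplicated genes expressed about as low as Pcp4 had wider errors than the segment as a whole, where the median SE was 0.084. Among the 17 duplicated genes with a mean between 2.5 and 10 CPM, 7 were called (41.2%), the median log2 fold change was 0.48, and the median SE was 0.12. The SE of Pcp4, 0.21, was larger than this median, and its spread among Dp1Tyb mice had rank 2 of the 17, whose median coefficient of variation was 14.2%.

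The genes next to Pcp4 in the duplicated segment were given by the 5 nearest tested genes on each side. Of these 10, 3 passed the test, all higher in Dp1Tyb, where 59.6% of the tested genes of the segment were called higher. On the distal side, Dscam, a cell adhesion molecule of neurons, rose from 79.5 ± 6.36 to 122.8 ± 3.51 CPM (log2 fold change 0.63 ± 0.05, adjusted p = 1.25e-05 in edgeR). Mx2, an interferon-induced GTPase, rose from 0.889 ± 0.261 to 1.84 ± 0.121 CPM (log2 fold change 1.06 ± 0.18, adjusted p = 0.0117 in edgeR). On the proximal side, B3galt5, a galactosyltransferase, rose from 76.1 ± 4.42 to 103.8 ± 5.47 CPM (log2 fold change 0.45 ± 0.05, adjusted p = 0.000177 in edgeR). In each of these 3 genes all Dp1Tyb libraries lay above all WT libraries, which held for 62.3% of the tested genes of the segment.

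The other 7 neighbours did not pass. Their log2 fold changes were 0.75 ± 0.18 for Sh3bgr, 0.38 ± 0.11 for Lca5l, 1.04 ± 0.32 for Bace2 and 0.82 ± 0.26 for Ripk4. They were 0.09 ± 0.32 for Mx1, 0.19 ± 0.40 for Igsf5 and −0.24 ± 0.50 for Itgb2l, all 3 of which had under 1 CPM on average in either genotype. Bace2 was at 9.15 CPM in Dp1Tyb 4, the library with the lowest Pcp4, and at 3.38 to 3.81 CPM in the other Dp1Tyb libraries. Igsf5, as counted under its own identifier, was at 0.757 ± 0.323 CPM in WT and 0.874 ± 0.483 CPM in Dp1Tyb mice.

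Choroid plexus markers moved with the level of Pcp4 among the Dp1Tyb libraries. The summed CPM of 6 choroid plexus genes (Ttr, Folr1, Kl, Clic6, Kcne2 and Otx2), the epithelium that makes cerebrospinal fluid and lies against the hippocampus, was 2822, 421.5, 5331, 4123 and 4982 in WT replicates 1 to 5. The sums in Dp1Tyb replicates 1 to 5 were 35.2, 1432, 3858, 42.7 and 3698. Of the 6 genes, Clic6 and Kcne2 lie in the duplicated segment, so the choroid plexus level is not free of gene copy number. The libraries with the lowest sums in Dp1Tyb, 1 and 4, were also the ones with the lowest Pcp4. Described with no test, log2 Pcp4 correlated with the mean log2 choroid plexus level at 0.87 among the 5 Dp1Tyb libraries. The correlation was −0.13 among the 5 WT libraries, and 0.73 over the 10 libraries after each genotype was centred on its mean. For the other 6 markers it ran from 0.03 for Stard5 to 0.98 for Cacng5 in Dp1Tyb libraries. In WT libraries it ran from −0.70 for Cacng5 to 0.98 for Map3k15. Necab2 and Map3k15 were positive in both genotypes, at 0.77 and 0.98 in WT and at 0.60 and 0.54 in Dp1Tyb libraries. Rgs14, Amigo2, Cacng5 and Stard5 were negative in WT and positive in Dp1Tyb libraries.

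**Figure D3:**
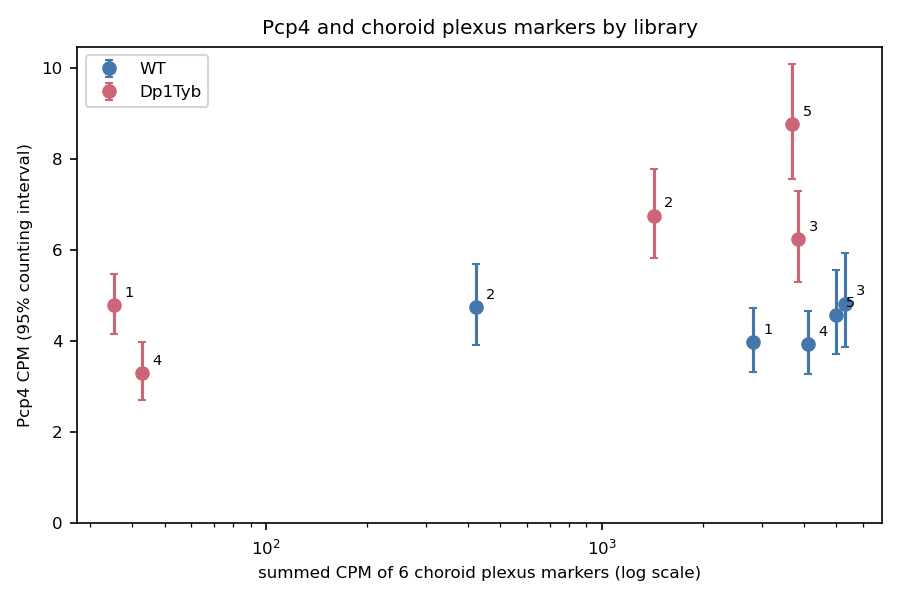
Pcp4 CPM with 95% counting intervals against the summed CPM of 6 choroid plexus markers on a log axis, for the 5 WT (blue) and 5 Dp1Tyb (red) libraries, numbered by replicate. Dp1Tyb 1 and 4, at 35.2 and 42.7 CPM of choroid plexus markers, have the lowest Pcp4 values of their genotype.

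The genotype difference of Pcp4 changed with the libraries kept. With the 3 libraries under 0.2 of the median choroid plexus level left out (WT 2, Dp1Tyb 1 and Dp1Tyb 4), the log2 fold change was 0.74 ± 0.14 and passed the test (adjusted p = 0.0418 in edgeR), where 0.625% of all tested genes and 55.3% of the duplicated ones were called. With all 10 libraries and the choroid plexus level as a covariate it was 0.61 ± 0.16, which did not pass (adjusted p = 0.111 in edgeR). Leaving out 1 library at a time gave log2 fold changes from 0.26 (without Dp1Tyb 5) to 0.58 (without Dp1Tyb 4), with adjusted p-values between 0.13 and 0.545, none of them under 0.05. The libraries were left out for their choroid plexus level, a choice made after the data were seen. Dp1Tyb 1 and Dp1Tyb 4 were also the Dp1Tyb libraries with the lowest Pcp4, so leaving them out was bound to raise the difference. The rise to 0.74 is therefore no test of the choroid plexus level, and the part of that tissue in the Pcp4 level was not tested beyond these values.

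None of the 6 CA2 markers outside the duplicated segment passed the test, which 0.718% of all tested genes outside the segment did. In each of them the genotypes overlapped, while 3.68% of all tested genes had groups that did not overlap. Their median log2 fold change was 0.14, against −0.0041 over all tested genes, with 5 higher and 1 lower in Dp1Tyb mice. At an unadjusted p under 0.05, 1 of the 6 was below the threshold, where 14.4% of all tested genes were. DESeq2 also called 0 of the 6, where it called 3.2% of all genes it tested.

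**Figure D4:**
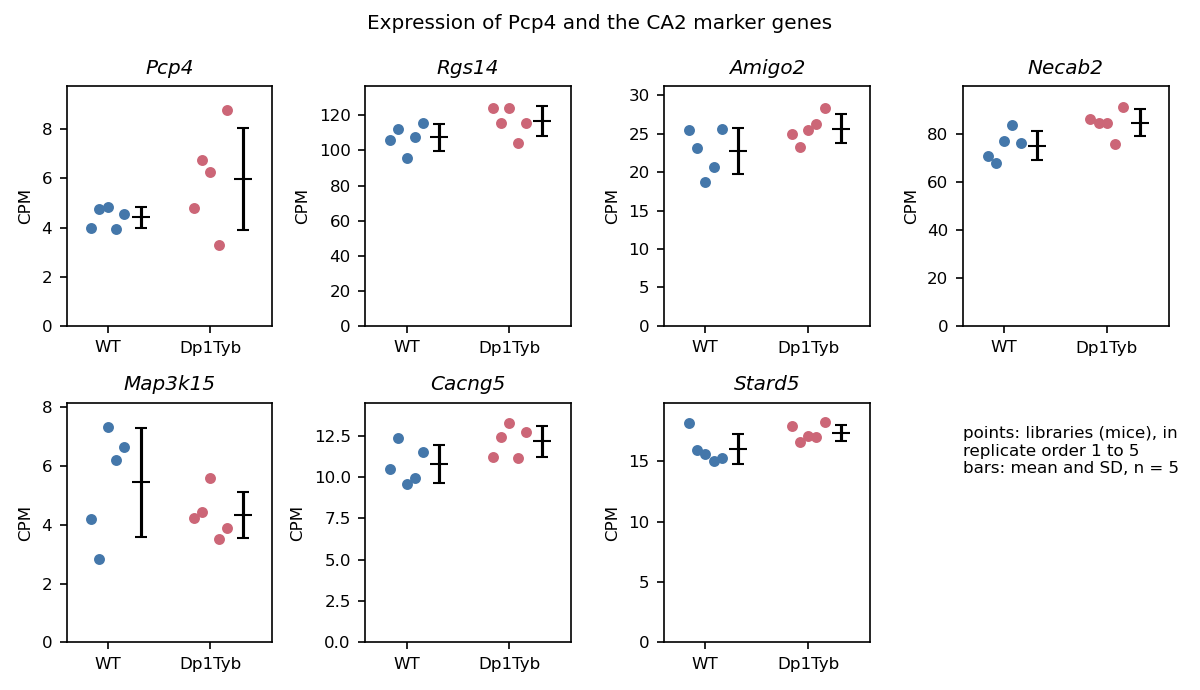
CPM of Pcp4 and the 6 CA2 markers outside the duplicated segment in each WT (blue) and Dp1Tyb (red) library, in replicate order. Bars are the mean and SD of 5 mice. Every panel starts at 0, the genotypes overlap in every gene, and Pcp4 has the widest relative spread in Dp1Tyb, with a coefficient of variation of 34.5%.

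Of the markers with signalling roles, Rgs14 encodes a regulator of G protein signalling that restrains synaptic potentiation in CA2. Rgs14 (ENSMUSG00000052087, chr13:55369732-55384687, plus strand) was at 105.7, 112.5, 95.9, 107.9 and 115.9 CPM in WT replicates 1 to 5. Across Dp1Tyb replicates 1 to 5 it was at 124.5, 115.8, 124.3, 104.1 and 115.4 CPM. Dp1Tyb 1 and 3 lay above all WT libraries, and Dp1Tyb 4 lay below all WT libraries but WT 3. The log2 fold change of Rgs14 was 0.12 ± 0.06 (95% interval −0.01 to 0.24, edgeR adjusted p = 0.376).

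Map3k15 (ENSMUSG00000031303, chrX:159988433-160123351, plus strand), a kinase of the MAP kinase cascade, was the 1 marker with a lower mean in Dp1Tyb. It stood at 4.20, 2.83, 7.32, 6.21 and 6.62 CPM in WT replicates 1 to 5. Its Dp1Tyb replicates 1 to 5 stood at 4.22, 4.44, 5.60, 3.51 and 3.88 CPM. The WT libraries spread over both sides of the Dp1Tyb range, and the log2 fold change was −0.32 ± 0.22 (95% interval −0.79 to 0.15, edgeR adjusted p = 0.527). In WT the lowest Map3k15 level fell in WT 2, the library with the lowest choroid plexus level of its genotype. Its log2 fold change was −0.08 with that level as a covariate, −0.38 without the 3 libraries poor in choroid plexus markers, −0.49 without WT 2 and −0.20 without WT 3. Of its 4348 exon bases, 603 (13.9%) lie opposite exons of Pdha1 on the other strand.

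Among the markers at membranes, Amigo2 (ENSMUSG00000048218, chr15:97244125-97247287, minus strand), an adhesion molecule, was at 25.5, 23.1, 18.7, 20.7 and 25.6 CPM in WT replicates 1 to 5. Amigo2 in Dp1Tyb replicates 1 to 5 was at 25.03, 23.2, 25.5, 26.2 and 28.4 CPM. Dp1Tyb 4 and 5 lay above all WT libraries, while the lowest libraries were WT 3 and 4. The log2 fold change of Amigo2 was 0.17 ± 0.09 (95% interval −0.01 to 0.36, edgeR adjusted p = 0.384).

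Cacng5 (ENSMUSG00000040373, chr11:107874605-107915055, minus strand) encodes an auxiliary subunit of AMPA receptors. It was measured at 10.5, 12.4, 9.54, 9.93 and 11.5 CPM in WT replicates 1 to 5. The values of Cacng5 in Dp1Tyb replicates 1 to 5 were 11.2, 12.4, 13.2, 11.1 and 12.7 CPM. Dp1Tyb 2, 3 and 5 lay above all WT libraries, if only narrowly in Dp1Tyb 2, and the log2 fold change was 0.17 ± 0.09 (95% interval −0.01 to 0.36, edgeR adjusted p = 0.382). Without the 3 libraries poor in choroid plexus markers, the log2 fold change of Cacng5 was 0.30, with an adjusted p of 0.252 in edgeR.

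Necab2 (ENSMUSG00000031837, chr8:119446719-119472640, plus strand), a calcium-binding protein of neurons, was the marker with the smallest unadjusted p. Its levels were 70.7, 67.7, 77.0, 83.7 and 76.1 CPM in WT replicates 1 to 5. In Dp1Tyb replicates 1 to 5 the levels of Necab2 were 86.3, 84.6, 84.5, 75.8 and 91.3 CPM. All Dp1Tyb libraries but Dp1Tyb 4 lay above all WT libraries. The log2 fold change of Necab2 was 0.17 ± 0.06 (95% interval 0.04 to 0.30, edgeR adjusted p = 0.231). With the choroid plexus level as a covariate it was 0.22 ± 0.06 (edgeR adjusted p = 0.102).

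Stard5 (ENSMUSG00000046027, chr7:83631959-83653127, plus strand), a lipid transfer protein, was at 18.1, 15.9, 15.6, 15.0 and 15.3 CPM in WT replicates 1 to 5. Stard5 in Dp1Tyb replicates 1 to 5 was at 17.9, 16.6, 17.1, 17.0 and 18.2 CPM. WT 1 stood apart from its group and was as high as the highest Dp1Tyb libraries, and the other WT libraries were below all Dp1Tyb libraries. The log2 fold change was 0.12 ± 0.06 (95% interval −0.02 to 0.26, edgeR adjusted p = 0.427), and 0.17 without WT 1. Stard5 shares 1202 of its 5460 exon bases (22.0%) with Il16 on the opposite strand, and the strand setting of the counting is not given in the sources used here.

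The 95% intervals, each for its own gene, limit the difference of every marker in whole hippocampus, not within CA2 alone. The upper bound was 0.36 or less on the log2 scale for each of the 6 markers, below the 0.58 of a 1.5-fold rise. The lower bound of Map3k15, −0.79, was the only one of the 6 past a 1.5-fold decrease. Of 8 other genes known to be enriched in CA2, 0 passed the test (1.11% of all tested genes), 6 had a higher and 2 a lower mean in Dp1Tyb, and the median log2 fold change was 0.08. The limit of a 1.5-fold rise did not hold for all 8. Their widest interval ran from −0.51 to 1.04, for a gene at 0.46 CPM in WT and 0.57 CPM in Dp1Tyb.

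**Figure D5:**
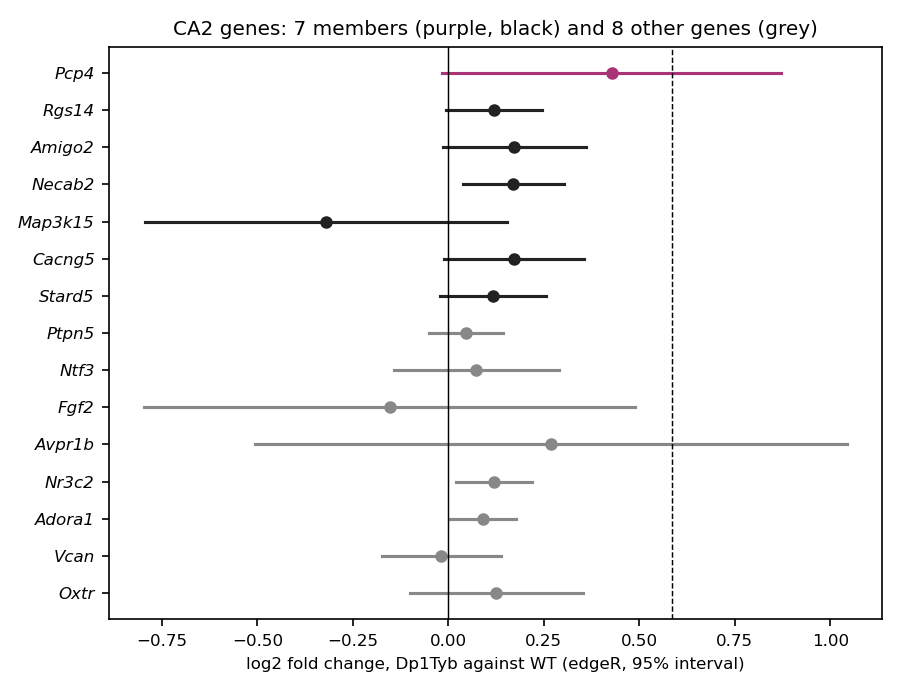
Log2 fold change of Dp1Tyb against WT with 95% intervals. Pcp4 is purple, the 6 CA2 markers outside the duplicated segment are black and 8 other genes enriched in CA2 are grey. The solid line is no change and the dashed line the 1.5-fold level, which lies above the interval of each black gene.

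Of these 8 genes, the 3 with the smallest p were receptors. Nr3c2, the mineralocorticoid receptor, was at 195.0 ± 11.9 CPM in WT and 211.6 ± 9.50 CPM in Dp1Tyb mice (log2 fold change 0.12 ± 0.05, edgeR adjusted p = 0.274). Adora1, the adenosine A1 receptor, was at 227.2 ± 10.9 and 242.0 ± 9.37 CPM (log2 fold change 0.09 ± 0.04, edgeR adjusted p = 0.332). Oxtr, the oxytocin receptor, was at 8.49 ± 1.06 and 9.30 ± 1.04 CPM (log2 fold change 0.13 ± 0.10, edgeR adjusted p = 0.608). At an unadjusted p under 0.05 there were 2 of the 8, Nr3c2 and Adora1, where 14.4% of all tested genes were, and DESeq2 called 0, where it called 3.2% of all genes.

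Set against the 6 markers in the same library, Pcp4 was still uneven among Dp1Tyb mice. The markers were averaged as centred log2 CPM, and this mean was −0.04 ± 0.09 in WT and 0.04 ± 0.08 in Dp1Tyb (SD, n = 5 each). Pcp4 minus this mean was −0.27, 0.09, 0.01, −0.32 and −0.21 in WT replicates 1 to 5. The same difference in Dp1Tyb replicates 1 to 5 was −0.10, 0.42, 0.18, −0.52 and 0.73 on the log2 scale. Dp1Tyb 2, 3 and 5 again lay above all WT libraries and Dp1Tyb 4 below them, and the difference of the means was 0.28, against 0.37 for Pcp4 alone.

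Over the 10 libraries, with each genotype centred on its mean, the correlation of log2 Pcp4 with the other markers ran from 0.03 with Amigo2 to 0.52 with Cacng5 and 0.48 with Necab2. Among the 6 markers themselves it ran from −0.42 for Map3k15 and Stard5 to 0.65 for Necab2 and Map3k15, with 0.64 for Rgs14 and Cacng5. The 7 genes did not rise and fall as a block from mouse to mouse. These values describe 10 libraries that differ in depth and in choroid plexus level, and were not tested.

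Per exon length, in RPKM (counts scaled by library size and by the exon length of the gene), Necab2 was the most abundant of the 7 genes in WT mice. Its level was 35.8 ± 2.94 RPKM, followed by Rgs14 at 25.4 ± 1.81, Amigo2 at 7.19 ± 0.953, Pcp4 at 4.30 ± 0.413, Stard5 at 2.93 ± 0.227, Cacng5 at 2.81 ± 0.302 and Map3k15 at 1.25 ± 0.428 RPKM (SD, n = 5). With these lengths, only Stard5 and Cacng5 overlapped among neighbours in this order. The length of Pcp4, 1026 bases, covers the exons of all its transcripts, whereas its 3-exon transcript has 641 bases. The shorter length would bring Pcp4 nearer to Amigo2. In Dp1Tyb mice, with the length of 1026 bases for Pcp4, the order of the means was the same. There Pcp4, at 5.82 ± 2.01 RPKM and with a range of 3.22 to 8.54, overlapped with Amigo2 above it and with Stard5 and Cacng5 below it. With the shorter length, the place of Pcp4 in the Dp1Tyb order and its overlaps would differ.

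Genes that act with these markers were taken from a list of 25 genes of calmodulin and Rgs14 signalling: calmodulins, calmodulin-dependent kinases, calcineurin subunits, calmodulin-binding IQ proteins, and the G protein and Ras partners of Rgs14. Of the 25, 1 passed the test (4%), Gnai1, against 1.11% of all tested genes. At an unadjusted p under 0.05 there were 11 of the 25, 9 of them higher and 2 lower, against 14.4% of all tested genes. The median log2 fold change of the list was 0.04. Gnai1, the inhibitory G protein subunit that Rgs14 binds, rose from 189.2 ± 6.03 to 217.4 ± 8.53 CPM (log2 fold change 0.20 ± 0.04, edgeR adjusted p = 0.0169), and all Dp1Tyb libraries lay above all WT libraries, as in 2.56% of all tested genes.

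Without the 3 libraries poor in choroid plexus markers, the log2 fold change of Gnai1 was still 0.20 but no longer passed the test (adjusted p = 0.123 in edgeR). Over all alternatives its log2 fold change stayed between 0.19 and 0.22. The call was made in 6 of the 10 fits that left out 1 library. It was lost without WT 2, WT 4, Dp1Tyb 2 or Dp1Tyb 3, with an adjusted p of at most 0.0617. The next genes of the list were the kinases Camk1d, at 244.3 ± 7.67 and 268.5 ± 6.39 CPM (log2 fold change 0.14 ± 0.03, edgeR adjusted p = 0.0671), and Camk1g, at 31.0 ± 1.23 and 34.0 ± 1.11 CPM (0.13 ± 0.04, edgeR adjusted p = 0.205). For both of these, all Dp1Tyb libraries again lay above all WT libraries. DESeq2 called Camk1d (adjusted p = 0.00923) beside Gnai1 (adjusted p = 0.000102).

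Of 16 relatives of the 7 genes in their protein families, 0 passed the test, where 1.11% of all tested genes did, and the median log2 fold change was −0.02. At an unadjusted p under 0.05 there were 4 of the 16, where 14.4% of all tested genes were. Stard4, a sterol carrier of the family of Stard5, was closest to the threshold, with 25.2 ± 2.17 CPM in WT and 31.7 ± 2.80 CPM in Dp1Tyb mice (log2 fold change 0.33 ± 0.07, edgeR adjusted p = 0.0505), and DESeq2 called it with an adjusted p of 0.00286. Rgs12, a relative of Rgs14, had a log2 fold change of 0.24 ± 0.07 (edgeR adjusted p = 0.161), and Necab3, a relative of Necab2, one of −0.25 ± 0.09 (edgeR adjusted p = 0.253). Pcp4l1, whose motif is shown above, was at 60.8 ± 11.4 CPM in WT and 50.3 ± 10.5 CPM in Dp1Tyb mice (log2 fold change −0.28 ± 0.15, edgeR adjusted p = 0.415). Unlike Pcp4, Pcp4l1 followed the choroid plexus level in both genotypes, with correlations of 0.99 in WT and 0.91 in Dp1Tyb libraries, given with no test. For Pcp4l1 the log2 fold change was −0.07 with that level as a covariate and −0.38 without WT 2.

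Markers of other regions and cells were examined because Pcp4 is also expressed outside CA2. Of 39 such genes 0 passed the test in edgeR (1.11% of all tested genes) and DESeq2 (3.2%). At an unadjusted p under 0.05 there were 7 of the 39, all of them lower in Dp1Tyb, where 14.4% of all tested genes were in either direction and 6.4% were lower. The defining markers of hippocampus were present in every library: 4 CA1 genes summed to between 583.9 and 635.3 CPM in WT and 579.4 and 636.7 CPM in Dp1Tyb, 5 CA3 genes to between 162.8 and 188.6 and 175.2 and 193.5 CPM, and 4 dentate granule cell genes to between 235.1 and 306.1 and 214.4 and 235.2 CPM. In CA1, Fibcd1, Wfs1 and Pou3f1 had log2 fold changes of 0.09, 0.07 and −0.14, and in CA3, Grik4, Nectin3 and Coch had values of 0.12, 0.08 and −0.21. The value of Coch turned to 0.11 and that of Pou3f1 was −0.03 with the choroid plexus level as a covariate.

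Of the 4 dentate granule cell markers, 3 had a lower mean in Dp1Tyb. C1ql2, a synaptic protein of mossy fibres, was at 76.5 ± 19.0 CPM in WT and 54.3 ± 3.21 CPM in Dp1Tyb mice (log2 fold change −0.49 ± 0.13, edgeR adjusted p = 0.0906). Prox1, the transcription factor that defines granule cells, had a log2 fold change of −0.18 ± 0.06 (edgeR adjusted p = 0.184) and Dsp, a desmosome protein, one of −0.21 ± 0.09 (edgeR adjusted p = 0.303). None of the 3 passed the test, although C1ql2 did where genes with low counts were kept in the test (edgeR adjusted p = 0.0354).

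Of the other places where Pcp4 is found, Purkinje cell markers were low, at a sum of 3.59 to 15.9 CPM in WT and 3.21 to 4.76 CPM in Dp1Tyb. Car8 had a log2 fold change of −0.96 ± 0.37 (edgeR adjusted p = 0.266) and Pcp2 one of −0.27 ± 0.32. The highest Car8 level, 14.02 CPM, was in WT 2, and the other WT libraries lay between 3.12 and 4.87 CPM. Without WT 2 the log2 fold change of Car8 was −0.38, and that of Pcp2 turned to 0.26 without the 3 libraries poor in choroid plexus markers. Thalamus markers summed to between 56.0 and 69.3 CPM in WT and 56.3 and 66.7 CPM in Dp1Tyb, and Lef1, Prkcd and Tcf7l2 had log2 fold changes of −0.32, 0.12 and −0.14. Lef1 was lower in all Dp1Tyb than in all WT libraries, as in 1.12% of all tested genes, but did not pass the test (edgeR adjusted p = 0.161).

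Striatum markers summed to between 64.9 and 98.1 CPM in WT and 53.5 and 78.7 CPM in Dp1Tyb, with log2 fold changes of −0.63 for Ppp1r1b and 0.19 for Drd1. Ppp1r1b followed the choroid plexus level, with a correlation of 0.96 over the genotype-centred libraries, and with that level as a covariate its log2 fold change was −0.30. Deep cortical markers summed to between 102.3 and 118.5 CPM in WT and 103.8 and 112.7 CPM in Dp1Tyb, and Fezf2, Ccn2 and Tle4 had values of −0.09, −0.21 and 0.03. Blood markers summed to between 30.5 and 63.2 CPM in WT and 23.5 and 46.0 CPM in Dp1Tyb, with −0.43 for Hbb-bs and −0.45 for Hba-a1. Without the 3 libraries poor in choroid plexus markers these values were −0.10 for Hbb-bs and 0.03 for Hba-a1, the latter turned in direction. Choroid plexus genes had log2 fold changes of −0.90 ± 0.59 for Kl, −0.96 ± 0.78 for Folr1 and −0.94 ± 0.77 for Otx2. The values were −0.40 ± 0.87 for Clic6 and −0.43 ± 0.83 for Kcne2, which lie in the duplicated segment. None of the 6 passed the test.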

How the data were processed

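Strand-specific poly(A) libraries were read from both ends by the authors. The authors trimmed adapters (Trim Galore), mapped reads to GRCm38 (TopHat2 2.0.12), discarded reads with several alignments, and deposited counts per Ensembl gene from HTSeq. The strand setting and annotation release are not given in the sources used here. The deposited normalised values, and the authors' own DESeq2 1.6.3 comparison (means, fold changes and p-values), were not used.

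The counts of all 10 libraries were tested with edgeR 4.0.16 in R 4.3.3 (quasi-likelihood F-test, TMM, filterByExpr, no covariates, Benjamini-Hochberg adjustment over all tested genes). CPM used TMM factors, and RPKM the exon length of each gene in GENCODE M21. Correlations used log2(CPM + 0.5) for single genes. The choroid plexus level and the comparison of same-numbered libraries added a larger constant to CPM before the log. Counting intervals are exact Poisson intervals at 95% and cover counting error only. Total counts of 18227684 to 43692270 set the precision of low genes.

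The genes, the lists and the tests were chosen with earlier results of these data known. Named were the 7 genes, each list gene past the threshold and the 3 of smallest p, 5 neighbours of Pcp4 on each side, and the 5 genes most like each profile. Pcp4l1 is named for its motif, and 1 gene that the rule names and 1 motif sequence are not reported here. Alternatives were RLE size factors, TMM without duplicated genes, DESeq2 1.42.0, voom in limma 3.58.1, no filter, a replicate block and leaving out each library. Leaving out libraries poor in choroid plexus markers, and that level as a covariate, were added after seeing the data. The scripts were tested on simulated data.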

Additional observations from a re-analysis of the deposited data

Results flagged for a closer look

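Among 102 groups of 5 libraries, 51 genes in each genotype, 5 held a library far from the other 4, where chance gives about 1 in 20, or 5.1 groups. Of the 7 CA2 genes, Stard5 was at 18.1 CPM in WT 1 and between 15.0 and 15.9 CPM in the other WT libraries, and without WT 1 its log2 fold change was 0.17 (edgeR adjusted p = 0.24). Among neighbours of Pcp4, Bace2 was at 9.15 CPM in Dp1Tyb 4, against 3.38 to 3.81 CPM in the other Dp1Tyb libraries, and Sh3bgr was at 2.37 CPM in WT 2, against 1.27 to 1.59 CPM in the other WT libraries. Prkcd, a thalamus marker, was at 28.2 CPM in WT 1 and between 26.5 and 27.0 CPM in the other WT libraries. Car8, a Purkinje cell marker, was at 14.02 CPM in WT 2 and between 3.12 and 4.87 CPM in the other WT libraries. Dp1Tyb 4, where Bace2 was highest, was the library with the lowest Pcp4.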

How the results depend on the processing

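The log2 fold change of Pcp4 kept its direction and its side of the threshold in 17 of 18 alternatives and moved to 0.74, past the threshold, without the 3 libraries poor in choroid plexus markers. Without 1 library it ran from 0.26 to 0.58. The 6 CA2 markers outside the duplicated segment, and the 8 other CA2 genes, had 0 calls in every alternative. No direction of the 6 was reversed. The 1 call among the calmodulin and Rgs14 signalling genes became 2 with DESeq2, 0 without the libraries poor in choroid plexus markers, and 0 to 1 when 1 library was left out. The 0 calls among family relatives became 1 (Stard4) with TMM without duplicated genes, with DESeq2 and with no filter, and 0 to 2 when 1 library was left out. The 0 calls among markers of other regions became 1 (C1ql2) with no filter, and 0 to 1 when 1 library was left out. For these moves the cause was not tested.

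Genotypes share replicate numbers in the labels, but no source says that a number marks a litter or batch, and the mice were not treated as pairs. Same-numbered libraries had correlated deviations of 0.31, 0.01, 0.29, −0.05 and 0.38, and 2 of 5 correlated best with their own number. With the replicate number as a block, Pcp4 had a log2 fold change of 0.37 ± 0.15 (edgeR adjusted p = 0.226), and 1 family relative (Stard4, adjusted p = 0.0359) and 1 marker of another region (C1ql2, adjusted p = 0.0199) were called. Calls over all tested genes numbered 191 by default, 507 with DESeq2, 315 with the block, 108 without the libraries poor in choroid plexus markers, and 105 to 218 without 1 library. Depth limits the lowest markers, Pcp4 at 89 to 209 and Map3k15 at 68 to 205 counts per library.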

Other observations

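The genes most like Pcp4 from mouse to mouse, by Pearson's r of log2 CPM over the 10 libraries with each genotype centred on its mean, were Rps27 (0.985), Tpm3 (0.982), Ftl1 (0.977), Cxcl14 (0.974) and Gm3851 (0.968). Rps27 encodes a ribosomal protein, Tpm3 a tropomyosin, Ftl1 the ferritin light chain and Cxcl14 a chemokine. None of these 5 genes passed the test between genotypes, with adjusted p-values from 0.598 to 0.715 in edgeR and log2 fold changes from −0.38 to 0.04. For the mean of the 6 CA2 markers outside the duplicated segment, the most alike were Dhrs13 (0.966), Scrt2 (0.963), Eef1d (0.962), Trip6 (0.958) and Lrrc51 (0.957). No gene was on both lists of 5. These are the highest values of r among the 17237 tested genes, with the 7 CA2 genes left out, given with no test. The SD of log2 Pcp4 was 0.14 in WT and 0.53 in Dp1Tyb libraries (n = 5 each). The values of r for Pcp4 thus rest mainly on the Dp1Tyb libraries.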
